A study of Caenorhabditis elegans with 2 samples.

Results

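Intronic regions that lay away from gene starts made up 7856 of the 29975 nuclear regions (26.2%) in the list called on the pooled replicates of an LSY-27 chromatin immunoprecipitation experiment. That list is a relaxed one of 30000 entries, described by the authors as peaks and background, so an entry need not be a site of binding. A region was counted here when its summit, the position of strongest enrichment given by the authors, met 4 conditions. It lay inside a protein-coding gene, it lay in no annotated exon, it lay outside the window from 1000 bp upstream to 200 bp downstream of every protein-coding 5′ end, and it lay more than 500 bp from every tRNA, snRNA, snoRNA, miRNA or piRNA gene of the RefSeq annotation of WBcel235 (ce11). All 7856 regions were 316 bp wide. Signal values played no role in the choice.

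Whole young adult hermaphrodites of the Caenorhabditis elegans strain OP401 were used for chromatin immunoprecipitation with sequencing (ChIP-seq). The strain is a transgenic line that carries LSY-27 with a GFP-FLAG tag at its C terminus. The sample descriptions name an anti-GFP antibody, whereas the antibody label names lsy-27. There were 2 biological replicates, numbered 2 and 3, in 1 group, with no other strain, stage or factor, so every comparison here is between places in the genome or between the replicates' lists. The signal of a region is a score made by the authors on a scale that is not known here, and the read depth is unknown too. In a whole animal, a weak region in many cells and a strong region in few cells cannot be told apart.

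LSY-27 is a C2H2 zinc finger protein known for making the left and right ASE taste neurons differ. Introns of C. elegans genes can hold enhancers, the promoters of shorter transcripts of the same gene and whole non-coding RNA genes. Many C. elegans transcripts are trans-spliced, that is, a short leader from another RNA replaces their first bases, so an annotated 5′ end can lie downstream of the place where transcription began.

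The sequences of the strongest of these regions are given first because they were of several kinds. Each is the 101 bp around the summit, from the plus strand of WBcel235, 5′ to 3′. The first 3 belong to the regions that were themselves in the authors' thresholded list, the list kept by the irreproducible discovery rate (IDR) method as reproducible between the replicates. They lay at chrII:5661817-5661917 in mdt-26, at chrV:53433-53533 in srt-52 and at chrV:11534733-11534833 in ccch-1. Capitals mark GAGAGA on either strand in mdt-26 and ccch-1, and in srt-52 the stretch that resembled a tRNA.
mdt-26: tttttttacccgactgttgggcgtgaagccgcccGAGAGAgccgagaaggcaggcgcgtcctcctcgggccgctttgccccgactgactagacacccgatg
srt-52: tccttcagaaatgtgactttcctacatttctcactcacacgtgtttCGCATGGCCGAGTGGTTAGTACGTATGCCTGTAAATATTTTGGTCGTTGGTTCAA
ccch-1: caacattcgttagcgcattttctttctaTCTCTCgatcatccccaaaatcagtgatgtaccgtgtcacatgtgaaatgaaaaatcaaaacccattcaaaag

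The next 5 by signal were at chrX:1302436-1302536 in inso-1, chrV:19522848-19522948 in Y43F8B.2, chrIII:2858515-2858615 in F56F11.4, chrIV:13029138-13029238 in mbk-2 and chrV:6214720-6214820 in rme-1. Capitals mark GAGAGA, which was found in Y43F8B.2 and not in the other 4.
inso-1: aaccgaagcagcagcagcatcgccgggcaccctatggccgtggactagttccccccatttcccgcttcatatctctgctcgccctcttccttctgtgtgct
Y43F8B.2: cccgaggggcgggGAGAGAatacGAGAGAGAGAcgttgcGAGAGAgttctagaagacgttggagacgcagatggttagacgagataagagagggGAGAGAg
F56F11.4: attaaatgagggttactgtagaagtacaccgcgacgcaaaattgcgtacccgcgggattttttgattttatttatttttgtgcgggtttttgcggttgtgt
mbk-2: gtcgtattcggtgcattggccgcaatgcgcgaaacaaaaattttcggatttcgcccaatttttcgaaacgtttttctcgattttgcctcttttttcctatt
rme-1: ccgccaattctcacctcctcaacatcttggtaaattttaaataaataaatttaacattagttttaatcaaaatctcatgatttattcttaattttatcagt

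A further 3 are shown because they were the strongest with AGAGACGC on either strand, a motif chosen after sequences of the strongest regions had been seen. They lay at chrIII:4191407-4191507 in dnj-16, chrII:2455033-2455133 in pqn-42 and chrIV:10935556-10935656 in lgg-2. Capitals mark the motif, and in pqn-42 also GAGAGA, which overlapped it. The last, at chrIV:17150634-17150734 in str-268, was the second strongest with a tRNA-like stretch, in capitals.
dnj-16: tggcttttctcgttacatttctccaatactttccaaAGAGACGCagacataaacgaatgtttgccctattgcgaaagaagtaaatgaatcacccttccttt
pqn-42: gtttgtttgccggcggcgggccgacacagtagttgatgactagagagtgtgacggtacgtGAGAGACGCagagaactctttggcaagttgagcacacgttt
lgg-2: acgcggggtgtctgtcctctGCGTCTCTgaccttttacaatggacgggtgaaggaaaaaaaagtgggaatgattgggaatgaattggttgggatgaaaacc
str-268: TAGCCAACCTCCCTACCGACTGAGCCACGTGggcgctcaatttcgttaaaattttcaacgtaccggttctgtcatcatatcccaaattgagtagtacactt

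The signals of the intronic regions were low for this list. Their median was 4.51, with quartiles of 3.62 and 5.99 and a range from 2.98 to 50.1. The median was 4.78 over all nuclear regions, 5.21 at gene starts, 4.64 in exons away from starts, 4.59 between genes and 5.73 near the short RNA genes. Of the intronic regions, 300 had a signal above 10 and 14 a signal above 20, against 1076 and 137 of the 8106 regions at gene starts. By number they were neither crowded nor sparse, because the places where a summit could meet the conditions covered 28.1 Mb, or 28.0% of the nuclear genome, and held 279.6 regions per Mb against 298.9 per Mb over the whole nuclear genome.

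By rank they were scarce at the top of the list. They made up 5.85% of the nuclear regions ranked 1 to 1000 by signal (57 of 975, the other 25 being mitochondrial), 16.4% of those ranked 1001 to 3000 (329 of 2000) and 24.5% of those ranked 3001 to 10000. In the last 10000 ranks they made up 29.7%. This was not particular to introns. Exon regions away from starts made up 5.33% of ranks 1 to 1000 and 21.3% of the last rank class. Those between genes made up 8.62% and 20.3%. These rank classes were chosen after the values were seen. The 386 intronic regions ranked within the first 3000 are called the strong intronic regions below.

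Of the 7856 intronic regions, 772 overlapped a region of both replicates' own lists by at least 1 bp (9.83%, exact Clopper-Pearson 95% interval 9.18 to 10.5), where 15.6% of all nuclear regions did. The share was 21.0% at gene starts, 13.8% between genes, 11.5% in exons away from starts and 32.1% near short RNA genes. Such intervals take each region as independent and hold counting error only. Replicate 3's list held 4968 of the intronic regions (63.2%) and replicate 2's, which was shorter (12414 regions against 29326), held 1750 (22.3%). Neither list held 1910 of them (24.3%), and the median signal of those was 3.86, against 7.15 for the regions in both.

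Presence in both lists followed rank in every class of location. Of the intronic regions ranked 1 to 1000, 40 of 57 were in both lists (70.2%, interval 56.6 to 81.6), and the share then went down through 45.3%, 20.4% and 6.04% to 2.15% in the last rank class. At gene starts the corresponding shares were 81.8%, 54.5%, 25.7%, 9.99% and 5.76%. The intronic share was therefore the lower at each rank, and in the 1 to 1000 class their intervals overlapped (56.6 to 81.6 against 77.6 to 85.5). Rank comes from the pooled reads of the same replicates, so rank and presence in the lists are not independent measures.

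**Figure D1:**
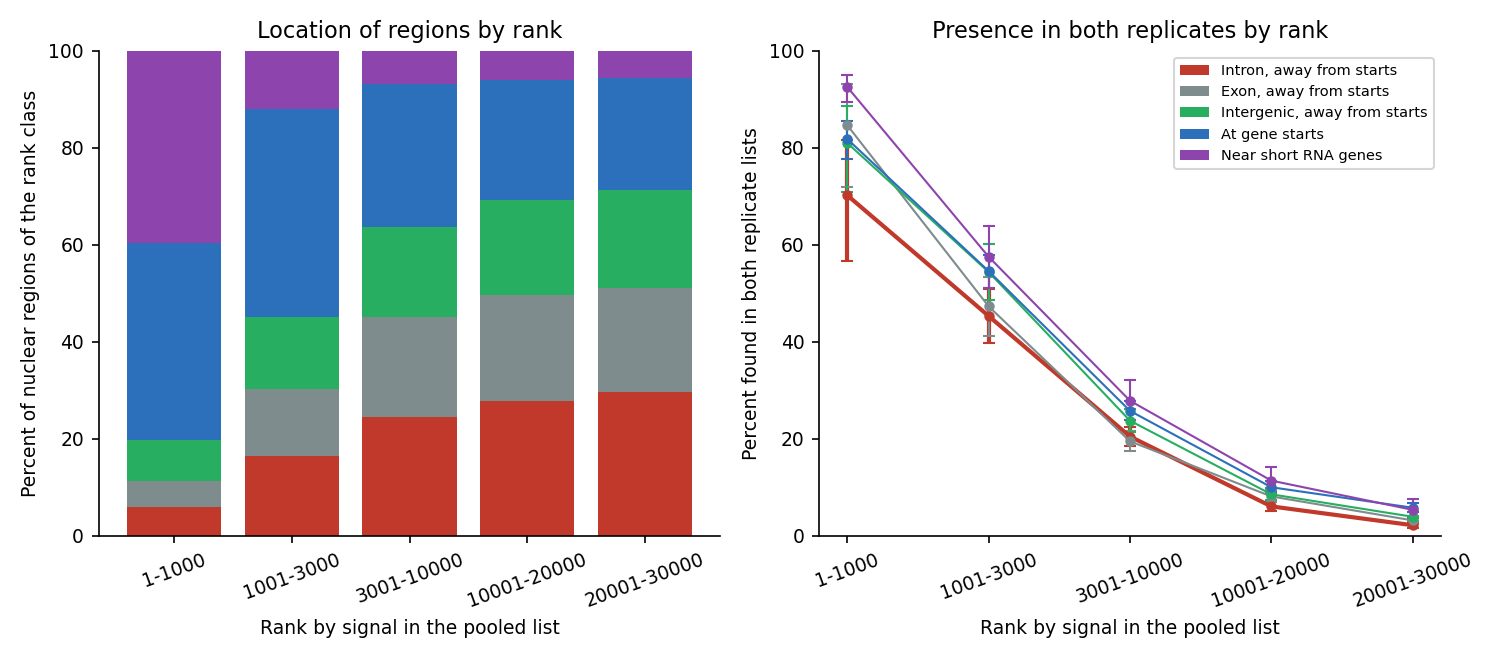
The left panel shows the percent of nuclear regions of each rank class (by signal in the pooled list, strongest first) in each of 5 locations, and the right panel the percent found in both replicates' lists, with exact 95% intervals. Intronic regions away from starts grow from 5.85% of the strongest class to 29.7% of the weakest, and 70.2% of the strongest against 2.15% of the weakest were in both lists.

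The replicates' own signals ranked the shared intronic regions in different orders. Across the 772, Spearman's rho between the 2 lists was 0.19, and across the other 3912 nuclear regions in both lists it was 0.32. Both are descriptions across regions of the same libraries, and at this size neither is a finding. A replicate region that overlapped several pooled regions could give its signal to each, so the points are not all distinct. The median signal of the 772 was 3.21 in replicate 2's list and 4.24 in replicate 3's, on scales that need not be the same. Of the 386 strong intronic regions, 175 were missing from replicate 2's list, 26 from replicate 3's, and 189 were in both.

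**Figure D2:**
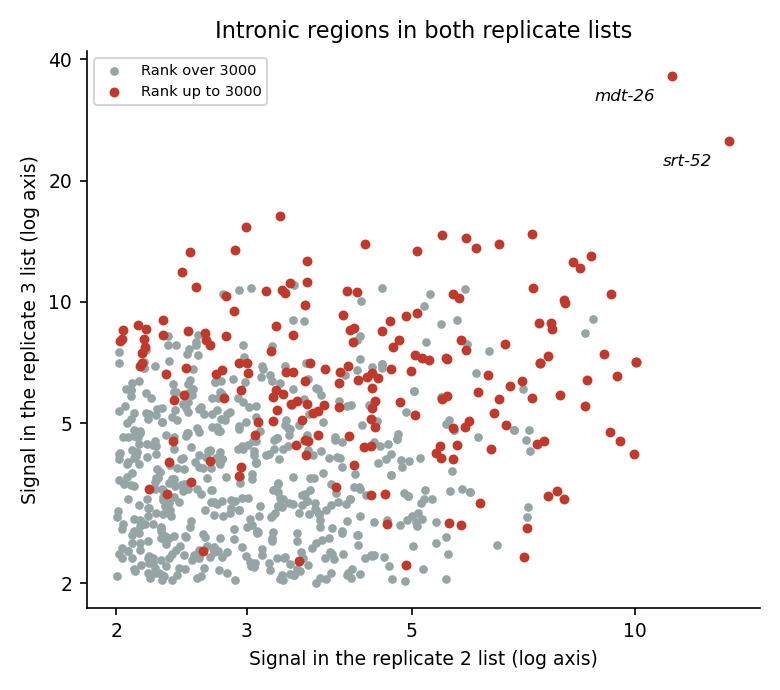
Each point is 1 of the 772 intronic regions found in both replicates' lists, with its signal in replicate 2's list on the x axis and in replicate 3's on the y axis, both log axes. Intronic regions that overlapped the same replicate region share its value, so points can coincide. The regions in mdt-26 (11.2 and 36.4) and srt-52 (13.4 and 25.1) stand apart from the rest, which form a cloud with little order between the lists.

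The thresholded list held 318 nuclear regions, which overlapped 348 of the pooled nuclear regions (1.16%). Among the intronic regions, 4 of 7856 overlapped it (0.0509%), against 108 at gene starts and 213 near short RNA genes. These 4 lay in mdt-26, srt-52, ccch-1 and hrpu-1. The hrpu-1 region, with a signal of 11.7, overlapped a thresholded neighbour and was not in the thresholded list itself.

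The strongest intronic region lay in mdt-26, which encodes a subunit of Mediator, the complex that links transcription factors to RNA polymerase II. It spanned chrII:5661709-5662024, in intron 2 of 7 of transcript C25H3.6a.1, an intron of 386 bp, with its summit 86 bp from the nearest exon and 686 bp downstream of the gene's 5′ end. Its signal of 50.1 was rank 29 of the pooled list. It ranked 133 in replicate 2's list (signal 11.2) and 32 in replicate 3's (36.4). The 101 bp at its summit had a GC content of 63.4%, against 24.8% in the windows 300 bp to either side.

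The region in srt-52, a gene of the serpentine chemoreceptor family, was second with a signal of 40.1 (rank 50). It lay in the middle of intron 2 of 4, 1926 bp from the nearest exon of an intron of 3934 bp. It ranked 69 in replicate 2's list (13.4) and 72 in replicate 3's (25.1). The sequence at its summit matched the tRNA pseudogene Y94H6A.t1 with 89.7% identity over 58 bp, while the nearest annotated short RNA gene was 14119 bp away. The region in ccch-1, a gene for a CCCH zinc finger protein, followed with a signal of 22.3 in intron 3 of 9, an intron of 7855 bp, and was in both lists (9.29 and 10.5).

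After these 3 the signals ran closely together, from 21.6 for the fourth to 18.4 for the twentieth. Of the 20 strongest, 16 were in both replicates' lists and the other 4 were in replicate 3's list alone. Those 4 lay in rme-1, which encodes an EH-domain protein of endocytic recycling, in sli-1, which encodes a Cbl-type ubiquitin ligase, in unk-1 and in T27E4.7. The 20 hosts also included mbk-2, a kinase gene of the oocyte-to-embryo transition (signal 21.1), pyp-1, an inorganic pyrophosphatase gene (20.3), zfp-1, a chromatin factor gene (18.9), egl-30, the Gq alpha subunit gene (18.6), and nrde-2, a gene of nuclear RNA interference (18.4). Of the 20 summits, 9 were in a first intron, 3 lay within 500 bp of another annotated non-coding RNA gene and 2 were tRNA-like.

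The replicates weighed some of these regions differently. The egl-30 region had rank 234 in replicate 2's list (signal 9.55) and rank 8922 in replicate 3's (4.52). Another intronic region in egl-30, with a pooled signal of 4.68, was matched to the same signals in both lists. The str-268 region had the opposite order, with rank 6694 in replicate 2's list (2.89) and rank 489 in replicate 3's (13.4). For mbk-2 the 2 ranks were closer, at 323 and 530.

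A recurring place of the strong intronic regions was the window around an internal transcript start. An internal transcript start is here the annotated 5′ end of a protein-coding transcript that lies outside the window at any gene's own 5′ end. For the shares, windows from 1000 bp upstream to 200 bp downstream of every protein-coding transcript start were used. Only the summit or base, and not the transcript start, had to lie outside the windows at genes' own 5′ ends. These are called windows of internal starts throughout. Such windows held 959 of the 7856 intronic regions (12.2%, interval 11.5 to 13.0) and 84 of the 386 strong ones (21.8%), while they covered 9.01% of the eligible intron bases. The share rose with rank, from 10.4% in the weakest class to 29.8% of the 57 strongest (17 regions, interval 18.4 to 43.4). Exon regions away from starts also had higher shares in ranks 1 to 1000 (9.62%, 5 regions) and 1001 to 3000 (8.73%) than in the weakest class (5.16%). Of the strong regions in such windows 61.9% were in both replicates' lists (52 of 84, interval 50.7 to 72.3), against 45.4% of the other strong regions (137 of 302, 39.7 to 51.2). The regions in the windows also had the higher median signal (11.4 against 10.9). Presence in both lists followed rank, and the part of rank in this gap was not tested.

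Among the 20 strongest, 7 lay in such windows. The summit in Y43F8B.2 lay 37 bp upstream of the start of transcript Y43F8B.2b.1 (signal 21.1), that in rme-1 48 bp upstream of W06H8.1i.1 (20.9), and that in F56F11.4 144 bp upstream of F56F11.4a.1 (21.1). The egl-30 summit lay 278 bp upstream of M01D7.7b.1. The summits in drap-1, pyp-1 and miz-1 were the other 3. Below the first 20, examples were alg-1, an Argonaute gene of the microRNA pathway (309 bp upstream of F48F7.1a.1, signal 14.5), daf-16, the FOXO factor of insulin signalling (135 bp upstream of R13H8.1d.1, 14.7), both in replicate 3's list alone, and casy-1, the calsyntenin gene (73 bp upstream of B0034.3b.1, 12.8).

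Around the 4033 internal starts of 2526 genes, the density of strong summits was highest in the 250 bp just upstream, at 58.3 per Mb of eligible intron. It was 39.5 per Mb from 500 to 250 bp upstream and 32.6 per Mb in the 250 bp downstream of the start. The density over all eligible introns was 13.7 per Mb, but the other bins within 2000 bp of a start varied from 10.7 to 35.8 per Mb, on 5 to 23 summits each, and 11 of these 13 were above it. The weaker intronic regions showed a flatter profile, with 414 per Mb in the 250 bp upstream against 266 per Mb over all eligible introns. Summits near several starts were counted at each.

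**Figure D3:**
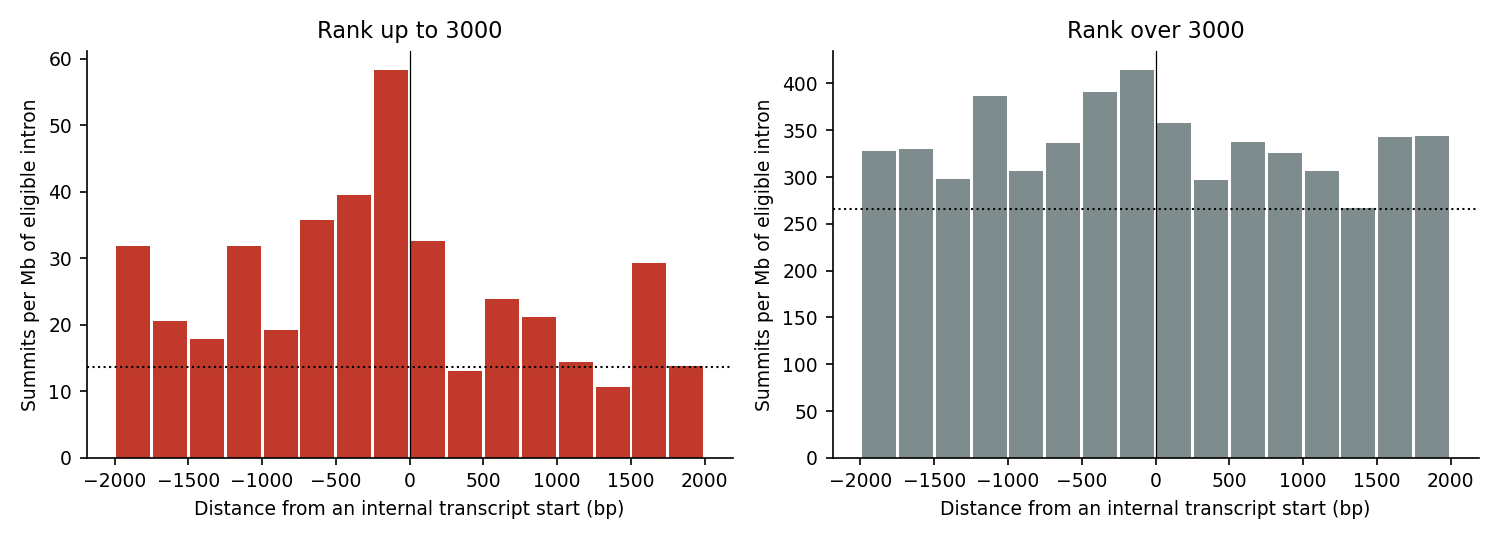
Bars show summits per Mb of eligible intron in bins of 250 bp by distance from an internal transcript start (negative is upstream), for the 386 strong intronic regions (left) and the 7470 weaker ones (right), and dotted lines show the density over all eligible introns. The bin just upstream of the start is the highest in both panels, at 58.3 against 13.7 per Mb on the left and 414 against 266 per Mb on the right.

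Within their hosts, the intronic regions as a whole were spread much as the eligible bases were. Of the 7830 that could be placed in an intron of an annotated transcript, 23.4% (interval 22.5 to 24.4) were in a first intron, which held 21.7% of the eligible bases. They were also even along the intron, with 32.5%, 33.2% and 34.3% in its first, middle and last part of equal length. The median summit lay 186 bp from a protein-coding exon and 2677 bp from the 5′ end of the host, and 22.1% lay within 50 bp of an exon, against 21.3% of eligible bases.

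The strong ones had other shares. First introns held 31.6% of them (121 of 383), and introns of 3001 to 10000 bp held 30.5% (117 of 383), where such introns held 18.0% of all intronic regions and 17.1% of eligible bases. Introns of up to 200 bp held 5.48% of the strong regions and 11.7% of eligible bases. The median strong summit lay 256 bp from an exon, with 16.8% within 50 bp and 67.4% within 500 bp, where 76.7% of all intronic regions and 75.2% of eligible bases lay within 500 bp. First position, intron length and internal starts go together in a gene, and their separate parts in these shares were not tested.

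Base composition moved with rank as well. The median GC content of the 101 bp at the summit was 43.6% for the 57 regions ranked 1 to 1000, 37.6% for those ranked 1001 to 3000, and 32.7% for the last rank class. The windows 300 bp away had 37.6%, 36.6% and 35.6%, which was below the summit in the strongest class and above it in the weakest. Summits had to lie in introns, whereas these windows could fall in exons. The gap in the weakest class therefore does not show summits poor in GC for introns. The summit median of that class lay slightly above the GC content of all eligible intron bases. All nuclear regions had 46.5% at the summit in ranks 1 to 1000 and 34.7% in the last class, so the change with rank was not limited to introns. Among the intronic regions, presence in both lists rose with GC content, from 5.84% of the 1130 regions with at most 25% GC to 21.2% of the 326 with more than 50%. The part of base composition in enrichment or read recovery was not tested.

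The motif GAGAGA, searched on both strands within 50 bp of the summit, was found at 496 of 7856 intronic regions (6.31%), against 7.90% of all nuclear regions and 5.50% of the windows 300 bp to the left of the same summits. It was more frequent at strong summits, with 11 of 57 (19.3%, interval 10.05 to 31.9) in the 1 to 1000 class and 43 of 329 (13.1%) in the next. All nuclear regions of these 2 classes held it in 14.1% and 13.3%, and those between genes in 31.0% and 19.8%, so the rise with rank was not limited to introns. In these classes the windows to the left held it at 8 and 19 of the same regions, and those to the right at 3 and 21. The eight-letter AGAGACGC was found at 57 intronic regions (0.726%, against 0.967% of all nuclear regions), of which 14 were strong, 18 were in the window of an internal start and 30 also held GAGAGA, with which it can overlap. A motif match is a description and not evidence of binding.

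The other motifs did not behave alike. TTTCAG, the usual end of a C. elegans intron, was found at 22.8% of all intronic summits and at 12.3% of the 57 strongest. The windows 300 bp away held it at 20.5% and 20.7% of the same regions, and all nuclear regions held it in 18.8% overall and 8.21% in ranks 1 to 1000, so it was less frequent at the strongest summits there too. TATAAA was found at 11.98% and 5.26% (10.9% and 6.77% for all nuclear regions), and the E-box CACGTG at 1.60% and 7.02% (1.78% and 2.26%), the 7.02% being 4 regions. GTTCGANNC, the core of the internal promoter element called the B box of tRNA genes, was found at 58 intronic summits (0.738%). All nuclear regions held it in 1.51%, and the windows to the left and right of the intronic summits in 0.827% each.

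**Figure D4:**
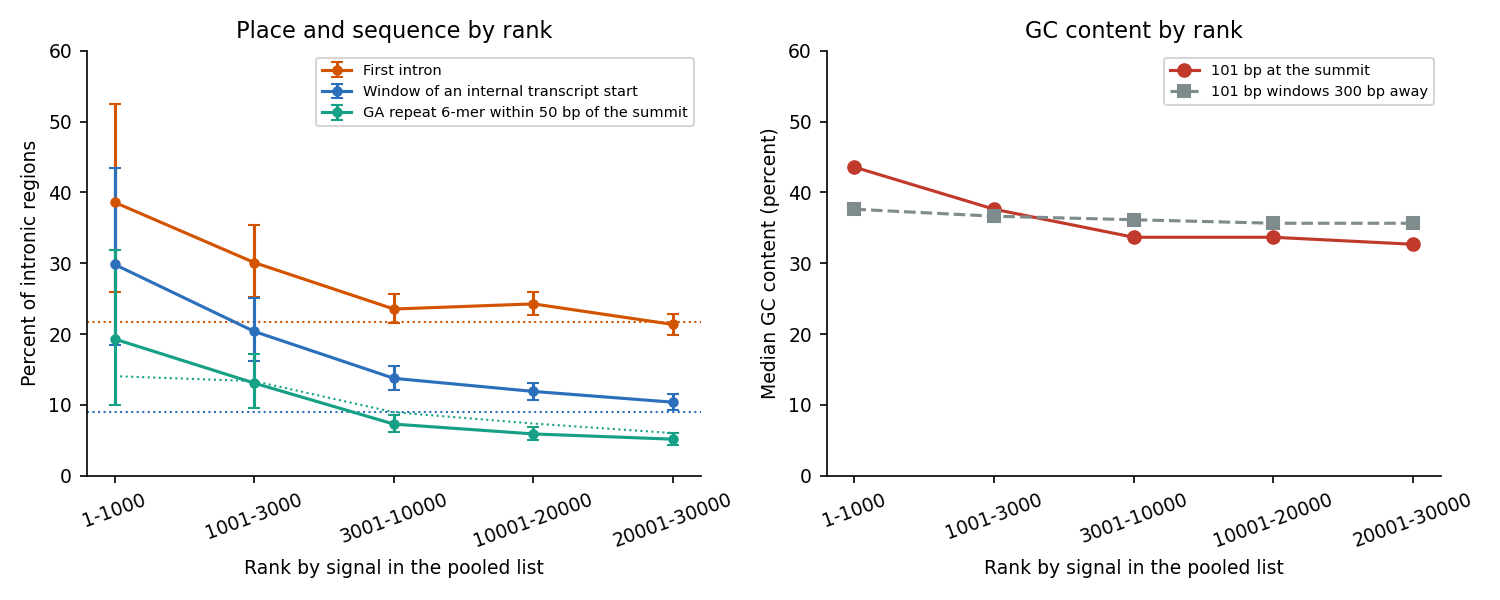
The left panel gives, for each rank class of the pooled list, the percent of intronic regions in a first intron, in the window of an internal transcript start, or with a GA repeat 6-mer within 50 bp of the summit, with exact 95% intervals. Dotted lines show the share of eligible intron bases for the first pair (21.7% and 9.01%) and, for the repeat, the share of all nuclear regions in the same rank class (14.1% in the strongest, 6.01% in the weakest). The right panel gives the median GC content at the summit, which falls from 43.6% to 32.7%, beside that of windows 300 bp away, which falls from 37.6% to 35.6%.

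Sequence similar to a tRNA gene or tRNA pseudogene was found within 100 bp of 83 intronic summits (1.06%), although each lay more than 500 bp from every annotated tRNA gene. The share was 2.33% over all nuclear regions, which take in those near short RNA genes, where it was 21.4%. It was 1.48% between genes away from starts, 0.481% at gene starts and 0.115% in exons away from starts. Tracts annotated as tRNA pseudogenes were not used to leave regions out, and 8 of the 83 had such an annotation within 100 bp of the summit, none of them strong. The best match was a tRNA pseudogene for 80 of them and a tRNA gene for 3. Of the 83, 13 were strong and 12 were in both lists. After srt-52, the strongest were str-268, another chemoreceptor gene (signal 20.4, with 77.6% identity to Y59A8B.t4 over 67 bp), and sms-3 (15.5, with 87.9% identity over 33 bp). This search was chosen after the srt-52 sequence had been seen. The median signal of the 83 was 4.70, against 4.51 for the other intronic regions.

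The 512 intronic regions within 500 bp of another annotated non-coding RNA gene (6.52%, against 5.66% of eligible bases) had a median signal of 4.74, and 60 of them were in both lists (11.7%, interval 9.06 to 14.8). Of these, 36 were strong. Examples among the 20 strongest were drap-1, T28B11.1 and unk-1.

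The hosts were many. Of the 19971 nuclear protein-coding genes, 4463 (22.3%) held at least 1 intronic region, and 335 (1.68%) held a strong one. The counts and densities of hosts take in regions of every rank, and 2.15% of those in the last rank class were in both lists. There were 2911 genes with a single region, 223 with 5 or more and 37 with 10 or more, and those 37 held 455 regions. The most, 17, were in each of afd-1, the afadin gene, spsb-1, lmd-3 and daf-16, followed by 16 each in Y48C3A.5 and ptp-3, a receptor tyrosine phosphatase gene of axon guidance.

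A large number went with long introns. The 17 regions in afd-1 lay in 43.5 kb of eligible intron, or 39.1 per 100 kb, and none was strong. The same number in daf-16 lay in 21.8 kb, or 78.0 per 100 kb, of which 4 were strong and 3 were in both lists. The helix-loop-helix gene hlh-30, the worm TFEB gene of autophagy and lysosomes, was denser still, with 15 regions in 16.6 kb, or 90.2 per 100 kb. Of those 15, 5 were in both lists, and the strongest had a signal of 18.0 in intron 2 of 10. The density over all genes was 28.0 per 100 kb.

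The host genes were also grouped in 22 lists of families and functions, which describe counts and carry no test. Density per 100 kb of eligible intron is used here because genes with long introns host more regions. The 53 germline and oocyte genes had the highest density, 43.9 per 100 kb (32 regions, exact Poisson 95% interval for the count 30.05 to 62.0), and 12 of them were hosts. Of the 32 regions, 3 were in both lists (9.38%), against 9.82% over the regions of all genes. The strongest germline hosts were mbk-2 and lag-1, the CSL factor gene of Notch signalling (signal 13.8). The 26 G protein subunit genes followed with 40.2 per 100 kb (19 regions, interval 24.2 to 62.8), led by egl-30 and by goa-1, the Go alpha subunit gene (7.24).

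The 134 transcription factor genes of neurons and development outside the homeobox and nuclear receptor lists had 38.7 per 100 kb (interval 31.8 to 46.6), with 42 hosts and 12 strong regions among 110. Of these 110, 21 were in both lists (19.1%), the share over the regions of all genes being 9.82%. The single gene hlh-30 held 15 of the 110 regions and 5 of the 21. The list was led by hlh-30 and egl-27, a gene for a chromatin-associated protein of the MTA type (16.99). The 274 nuclear hormone receptor genes had 28.7 per 100 kb, close to all genes, with nhr-3 (13.3) and nhr-46 (12.8) strongest. The 97 homeobox genes had 23.5, with vab-7 (9.92) and unc-62 (8.58) strongest.

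Lists of neuronal signalling genes had densities from 17.9 to 24.6 per 100 kb. Of the 36 voltage-gated and calcium-activated channel genes, 30 held an intronic region (83.3%), yet the density was 18.5 per 100 kb (interval 14.4 to 23.3), and none of their 71 regions was strong. Their median eligible length was 8.05 kb a gene, against 0.518 kb over all genes. Two-pore potassium channel genes had 21.6 per 100 kb (interval 15.2 to 29.8) with no strong region, ligand-gated channel genes 21.0 with 1, and neuropeptide and amine receptor genes 17.9 with 3. Synaptic vesicle and active zone genes had 24.6 (interval 18.2 to 32.5), with ric-7 (6.89) and unc-13 (6.68), a gene of vesicle priming, strongest.

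The large receptor, F-box and lectin families were low in both hosts and density. Of the 1310 chemosensory receptor genes, 9.01% were hosts, at 16.4 per 100 kb (interval 13.7 to 19.5), although srt-52 and str-268 were among the strongest hosts of all. The 322 F-box genes had 14.6 per 100 kb and 18 hosts, and the 239 C-type lectin genes 19.1 and 30 hosts, neither with a strong region. None of the 77 cytosolic ribosomal protein genes was a host, and together they had 3.74 kb of eligible intron, for which the interval ran up to 98.6 per 100 kb.

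The remaining lists lay near the density of all genes or had wide intervals. Cell adhesion and axon guidance genes had 27.5 per 100 kb and 10 strong regions in 161, led by casy-1 and hmr-1, the cadherin gene (11.99). Muscle structure genes had 27.8, led by act-4, an actin gene (13.1), and atn-1, the alpha-actinin gene (12.8). Genes of Ras, MAP kinase and insulin signalling had 29.3, led by ksr-1 (16.3), a scaffold of the pathway, and mpk-1, its ERK kinase (11.2). That list did not hold daf-16, whose strongest region had a signal of 14.7. The 57 genes listed as chromatin modifiers had 26.3, led by set-2 (14.3) and dot-1.1 (13.7), both histone methyltransferase genes. That list did not hold zfp-1 (18.9), egl-27 (16.99) or lsy-12 (13.9), which are described elsewhere here as genes of chromatin. Mediator subunit genes had 19.3, with mdt-26 and mdt-15 (9.84) the strongest. Cytochrome P450 genes had 20.4, led by cyp-36A1 (12.7), and cuticle collagen genes 36.1, led by col-53 (10.1), on 12 and 17 regions.

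**Figure D5:**
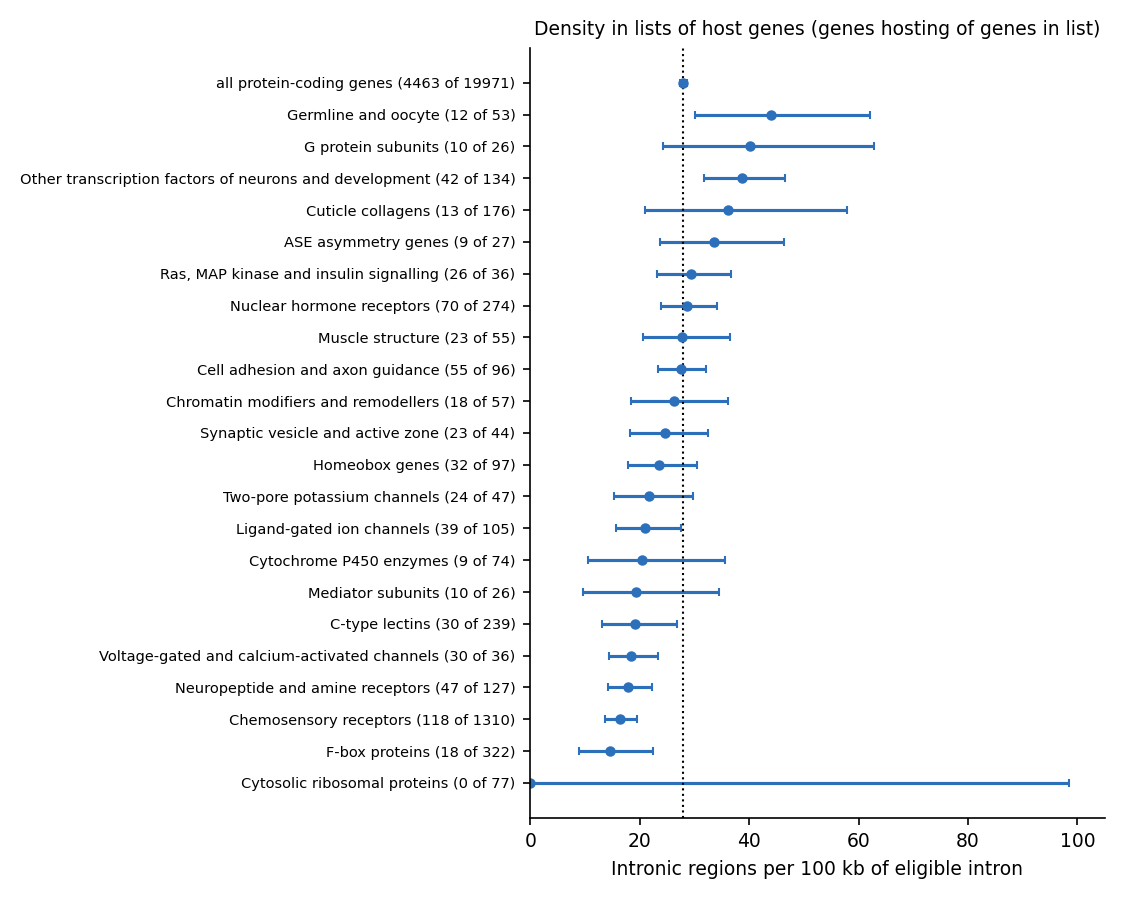
Points show intronic regions per 100 kb of eligible intron in 22 lists of host genes and in all protein-coding genes (28.0, dotted line), with exact 95% Poisson intervals of the counts. The intervals take regions as independent, although several can lie in 1 gene. In brackets are the genes that held at least 1 region of the genes in the list. Germline genes (43.9) and developmental transcription factor genes (38.7) lie above the line, and channel (18.5), receptor (16.4 and 17.9) and F-box genes (14.6) below it.

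No intronic region lay in lsy-27 itself (chrV:17348665-17350193), which had 477 eligible bases. Of 27 genes listed for the difference between the ASE neurons, 9 held 37 intronic regions, at 33.6 per 100 kb (interval 23.7 to 46.3), and 3 of the 37 were strong. The strongest lay in lsy-12, a histone acetyltransferase gene, 276 bp upstream of the internal start of R07B5.9b.1, with a signal of 13.9 and presence in both lists (5.27 and 7.17). Next were 2 regions in tir-1, an adaptor gene of the pathway, with signals of 12.8 and 11.8, again in both lists. Their matches in replicate 2's list were weak, with signals of 2.38 and 2.02 at ranks 9464 and 12194 of 12414. In replicate 3's list they had 4.52 and 7.99. The other hosts were lsy-22, nsy-1, unc-43, fozi-1, cog-1, gcy-7 and lsy-2. Of the 37, 5 were in both lists (13.5%).

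Intronic summits just outside the conditions had somewhat higher signals than those just inside. The 447 regions from 201 to 400 bp downstream of their host's start had a median signal of 4.48, and the 309 intronic summits from 1 to 200 bp downstream, left out by the window, had 4.83. The 178 intronic regions from 501 to 1000 bp from a short RNA gene had a median of 4.41. The 119 intronic summits from 251 to 500 bp away, which were left out, had 4.91, and over all 520 left out for that distance the median was 5.24, with 35 that overlapped the thresholded list.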

How the data were processed

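The deposited lists of regions (narrowPeak format, build ce11) were used for replicates 2 and 3 and for the pooled replicates. Per the text beside the lists, the authors called relaxed lists of regions and background against a control, and made the thresholded list by IDR. The signal is the authors' score of each region as deposited. The control was not analysed here, and the aligner, the caller and the read depths are not given in the sources used here. The lists on ce10 were not used.

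Summits were placed on the RefSeq annotation of WBcel235, with exons of any annotated gene excluded and the 5′ ends of genes as starts. Eligible bases are those where a summit would meet every condition. An overlap of 1 bp or more made regions shared, and a region took the highest signal among those it overlapped. The same replicate region could be matched to more than 1 pooled region. A summit in several introns was placed in 1 of them. tRNA similarity was searched with blastn 2.17.0 (word size 7, E-value up to 0.001) in the 201 bp around each summit. Uniqueness was read from 32-mers, and 91.9% of the 101 bp windows had all of theirs once in the genome. Analyses used Python 3.11.15, numpy 2.4.6, scipy 1.17.1 and pandas 2.3.3, with figures by matplotlib 3.10.9. The placement and overlap code was tested on simulated positions.

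With 1 group there was no test between samples, and no p-value was computed. The intronic regions, gene lists and motifs were chosen with earlier results of these data known. Named regions were those overlapping the thresholded list, the 20 strongest, the 2 strongest hosts of each list, the 5 genes with most regions and any in ASE genes. Other names, the rank classes, the AGAGACGC motif and the tRNA search were chosen after values were seen.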

Additional observations from a re-analysis of the deposited data

How the results depend on the processing

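The 5 main values were recomputed under 12 other settings. Their number, 7856, ran from 6330 to 8175 under other exon, start, window and distance rules, and was 3466 in the stronger part of the pooled list (ranks up to 15000), where the share in both replicates was 18.6%, the median signal 6.22 and the share in first introns 24.6%. The share in both replicates, 9.83%, went to 6.35% when an overlap of at least 50% of the shorter region was asked for, to 4.20% with summits within 100 bp, to 5.64% with the 12414 strongest regions of each replicate, and to 8.96% when the starts of all transcripts were used, which also put first introns at 21.9%. First introns came to 19.5% with the window at starts widened to 2000 bp before and 500 bp after and to 22.8% without regions near other non-coding RNA genes. The overlap with the thresholded list, 4 regions, became 2 with the wider window and 8 when exons of non-coding genes no longer counted. The added 4 lay in ints-8 (signal 44.6, in the RNA gene rpr-1), gpa-1 (42.5) and klp-6 (25.7 and 13.3). With the conditions applied to a single replicate's list (without replicate 2 or without replicate 3), the number was 2798 to 7675, the median signal 2.82 to 3.31, the share in first introns 23.5 to 24.2% and the overlap with the thresholded list 4 to 5. Without replicate 3 the number fell to 2798, from a list of 12393 nuclear regions. The cause of the other shifts was not tested. The unknown read depth limits what a region's absence from a list can show.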

Other observations

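The intronic regions were not equally dense on all chromosomes. Per Mb of eligible intron there were 314 on chromosome III, 303 on II, 297 on IV, 277 on I, 255 on V and 240 on X. The strong ones had 18.2 per Mb on III and 10.1 per Mb on X. On each chromosome the central part (25 to 75% of its length) was denser than the arms, by the widest margin on I (316 against 250 per Mb) and V (287 against 230), and by the narrowest on IV (304 against 292) and X (249 against 232). The share in both replicates' lists ran from 8.20% on X to 11.0% on IV.

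Several regions often shared an intron. The 7830 placed regions lay in 6418 introns, of which 814 held at least 2. The intron of 17091 bp in T28B11.1 held 1 of the 20 strongest regions (signal 19.1), 4862 bp from the nearest exon and within 500 bp of the non-coding RNA genes T28B11.24, T28B11.13 and T28B11.12.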
